A study of Mus musculus with 2 samples.

Results

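Cytotoxic lymphocytes kill through a small set of gene products, and 9 of them were followed here through the immune cells of mouse gliomas: the granzymes Gzma, Gzmb, Gzmc and Gzmk, the pore-forming protein perforin (Prf1), the granule membrane protein Nkg7, the lysosomal cysteine protease cathepsin W (Ctsw), and the death ligands Fasl (Fas ligand) and Tnfsf10 (TRAIL). The 9 genes were taken by symbol from the 31053 genes of the count matrices, and all 9 were measured. The data are 2 droplet single-cell libraries of CD45.2+ cells that excluded propidium iodide, sorted from the right brain hemisphere 10 days after 100000 GL261 glioma cells were placed in the brain. One library pooled 3 male wild-type mice (WT) and the other pooled 3 male mice heterozygous for CD169-DTR, all on the C57BL/6 J background and 8 to 12 weeks old. In CD169-DTR mice the promoter of CD169 (encoded by Siglec1, a sialic acid-binding receptor of macrophages) drives the diphtheria toxin receptor, so that diphtheria toxin kills the cells that use it. Both groups, the WT mice included, received the toxin at -1 and 4 days relative to the tumor, so the toxin alone does not separate them, and any cell that expresses CD169 is a target, not only macrophages of the tumor. Siglec1 was found in 12.6% of WT cells (1671 unique molecular identifiers, UMIs, each standing for 1 captured transcript) and in 4.68% of cells from CD169-DTR mice (426 UMIs). These shares are over all cells, of which microglia made up 47.1% in WT and 70.1% in CD169-DTR mice. The CD169-DTR allele is also a targeted change of Siglec1 itself. The parts of cell loss, of the allele and of the make-up of the cells in this difference were not tested.

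Each group is a single library, so no test between WT and CD169-DTR mice was possible and none was made. Levels are given as CPM, the UMIs of a gene summed over the cells of a class and scaled to a fixed total of UMIs for that class. Every 95% interval below is an exact one that covers counting error alone, not the spread between mice. After barcodes with fewer than 1000 UMIs or with more than 17% of UMIs from mitochondrial genes were set aside, 10107 WT cells (median 7776 UMIs and 2405 genes) and 7604 cells from CD169-DTR mice (median 8099.5 UMIs and 2596 genes) remained, and they held 41891 and 14621 UMIs of the 9 genes. The libraries shared 21 cell barcodes, none of them in NK-like or CD8 T-like cells.

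Granules of natural killer (NK) cells and of cytotoxic T cells hold perforin, which opens the membrane of the target cell, and granzymes, serine proteases that enter through it. Granzyme B cleaves caspases and starts apoptosis, granzyme A cleaves other substrates, and granzyme C belongs to a rodent family beside granzyme B. Fas ligand and TRAIL act on death receptors of the target cell, and Nkg7 and cathepsin W are found in the granules and membranes of the same lymphocytes. In the mouse genome (GRCm38) Gzmb (chr14:56258838-56262260, minus strand) and Gzmc (chr14:56231441-56234656, minus strand) lie in a cluster of 7 granzyme genes that spans 144.6 kb, and 19 of 470 windows of 31 bases at the 3' end of Gzmc are also in Gzmb, so a few of their reads cannot be told apart. Gzma (chr13:113093825-113100981) and Gzmk (chr13:113171608-113225908) are neighbours on the minus strand of chromosome 13. Prf1 (chr10:61297833-61304680) is on the plus strand, as are Nkg7 (chr7:43437073-43438249) and Tnfsf10 (chr3:27317028-27342427), and Fasl (chr1:161780689-161788495) and Ctsw (chr19:5465043-5468507) are on the minus strand.

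Promoters of 8 of the 9 genes were matched in RefSeq (GRCm38.p6, 250 bases before the start of transcription to 50 bases after it). Those of Gzma, Prf1 and Nkg7, which were higher together in the same kind of NK-like cell below, are printed with those of Gzmb and Gzmc, which took other paths. Capitals mark letters searched on both strands: the RUNX core TGTGGT, the T-box site GGTGTGA, the AP-1 site TGANTCA, the cyclic AMP response element TGACGTCA and an interferon-response-like element, GAAA and GAAA with 2 free bases between them.
Gzma (chr13:113100932-113101231, minus strand): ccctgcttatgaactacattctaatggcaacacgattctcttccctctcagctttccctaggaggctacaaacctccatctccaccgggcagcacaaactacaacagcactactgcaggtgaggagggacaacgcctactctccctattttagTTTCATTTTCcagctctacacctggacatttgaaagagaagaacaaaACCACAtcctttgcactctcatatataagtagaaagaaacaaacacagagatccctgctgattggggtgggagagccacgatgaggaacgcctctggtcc
Prf1 (chr10:61297586-61297885, plus strand): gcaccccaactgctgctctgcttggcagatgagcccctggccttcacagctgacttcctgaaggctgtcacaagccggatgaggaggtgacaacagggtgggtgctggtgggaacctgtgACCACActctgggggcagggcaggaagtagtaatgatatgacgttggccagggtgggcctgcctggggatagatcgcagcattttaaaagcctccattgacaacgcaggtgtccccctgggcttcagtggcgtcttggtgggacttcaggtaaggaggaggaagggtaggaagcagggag
Nkg7 (chr7:43436888-43437187, plus strand): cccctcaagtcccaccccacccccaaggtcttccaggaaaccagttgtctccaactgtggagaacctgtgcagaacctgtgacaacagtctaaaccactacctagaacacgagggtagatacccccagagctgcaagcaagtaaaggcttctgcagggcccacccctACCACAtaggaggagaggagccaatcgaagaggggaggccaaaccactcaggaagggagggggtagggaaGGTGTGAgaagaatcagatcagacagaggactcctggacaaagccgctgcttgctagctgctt
Gzmb (chr14:56262285-56262584, minus strand): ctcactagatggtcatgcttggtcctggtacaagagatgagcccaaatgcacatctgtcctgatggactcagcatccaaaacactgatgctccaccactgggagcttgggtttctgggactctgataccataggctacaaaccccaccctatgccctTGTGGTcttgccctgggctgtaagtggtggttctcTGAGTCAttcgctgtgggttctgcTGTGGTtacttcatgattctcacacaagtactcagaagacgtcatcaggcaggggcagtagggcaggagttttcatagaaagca
Gzmc (chr14:56234608-56234907, minus strand): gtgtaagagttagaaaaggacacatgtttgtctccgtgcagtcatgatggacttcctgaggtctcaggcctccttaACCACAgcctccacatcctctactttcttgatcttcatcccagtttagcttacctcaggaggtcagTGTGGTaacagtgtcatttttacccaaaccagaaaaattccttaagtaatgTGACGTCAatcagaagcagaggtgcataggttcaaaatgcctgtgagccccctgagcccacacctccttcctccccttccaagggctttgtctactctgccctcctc

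The RUNX core was present in all 5 of these promoters, at 2 places in Gzmb and in Gzmc, and in 5 of the 8 matched, against 16.8% of the 32851 mouse promoters in the same table. The T-box site was found in Nkg7 and Gzmk (3.98% of all promoters). Other matches were each to a single member: the AP-1 site in Gzmb (7.81% of all promoters), the cyclic AMP response element in Gzmc (1.79%) and the interferon-response-like letters in Gzma (3.44%). The windows of Fasl and Tnfsf10 held none of the 5 motifs. A match is a description of the letters and not evidence of binding, and no match says only that these letters are not in this window.

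NK-like and CD8 T-like cells were recognised by clustering and by marker genes. NK-like cells (270 in WT, 75 in CD169-DTR) carried the NK receptor Ncr1 at 446 CPM in WT and 625 CPM in CD169-DTR mice, and the T cell coreceptor genes Cd8a and Cd4 were at or near 0 (1 UMI in each library, and none). Their T cell transcripts were not equal between libraries, however. Cd3e was at 1 UMI in WT and 22 UMIs in CD169-DTR mice, Cd3g at 10 and 76 UMIs, and Cd3d at 30 and 63 UMIs. CD8 T-like cells (273 and 132) carried Cd3e at 466 and 517 CPM and Cd8a at 351 and 277 CPM, with Ncr1 at 15 and 12 UMIs and the gamma-delta gene Trdc at 234 and 39 UMIs. Cd4 was at 72 and 46 UMIs in them. Smaller classes were Treg-like cells (52 and 26), with Foxp3 at 261 and 257 CPM, and gamma-delta T-like cells (39 and 15), with Trdc at 971 and 1222 CPM. A further group of 53 and 33 cells, led by Vps37b, Fosl2 and Nr4a3, mixed T and NK transcripts and was left unnamed. No naming rule was made for other CD4 T cells, so they could not form a class here.

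Both main classes were made of sub-clusters whose sizes differed between libraries, so the main values of the 9 genes were also taken inside them. The NK-like class held a sub-cluster led by Ifi44, Car2 and Sh2d1b1 (215 cells in WT, 41 in CD169-DTR) and one led by Cma1, S1pr5 and Serpinb9b (55 and 34). The second is called S1pr5-high here after the receptor that guides NK cells out of tissue, and the first Ifi44-high. The CD8 T-like class held 3 sub-clusters, led by Klra6, Tcrg-C2 and Cd160 (155 and 56 cells), by Igkc and the interferon-induced genes Ifit1bl1 and Slfn5 (92 and 29), and by Igfbp4, Actn1 and Dapl1 (26 and 47). Cd4 was not evenly spread over these, with 6 and 5 UMIs in the first, 57 and 20 in the second and 9 and 21 in the third.

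NK-like cells held most of the Gzma, Prf1 and Gzmc message and the largest share of 4 other members. Of all Gzma UMIs in the cells of both libraries, 75.5% came from NK-like cells, and the same class held 68.9% of Prf1, 56.8% of Gzmc, 44.5% of Nkg7, 42.7% of Gzmb, 42.2% of Fasl and 39.1% of Ctsw. CD8 T-like cells held 60.8% of Gzmk, 31.1% of Ctsw, 28.6% of Nkg7 and 26.8% of Fasl. The remaining gene, Tnfsf10, was mostly outside lymphocytes, with 40.6% of its UMIs in microglia, 32.9% in endothelial cells and 9.2% in macrophages.

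**Figure D1:**
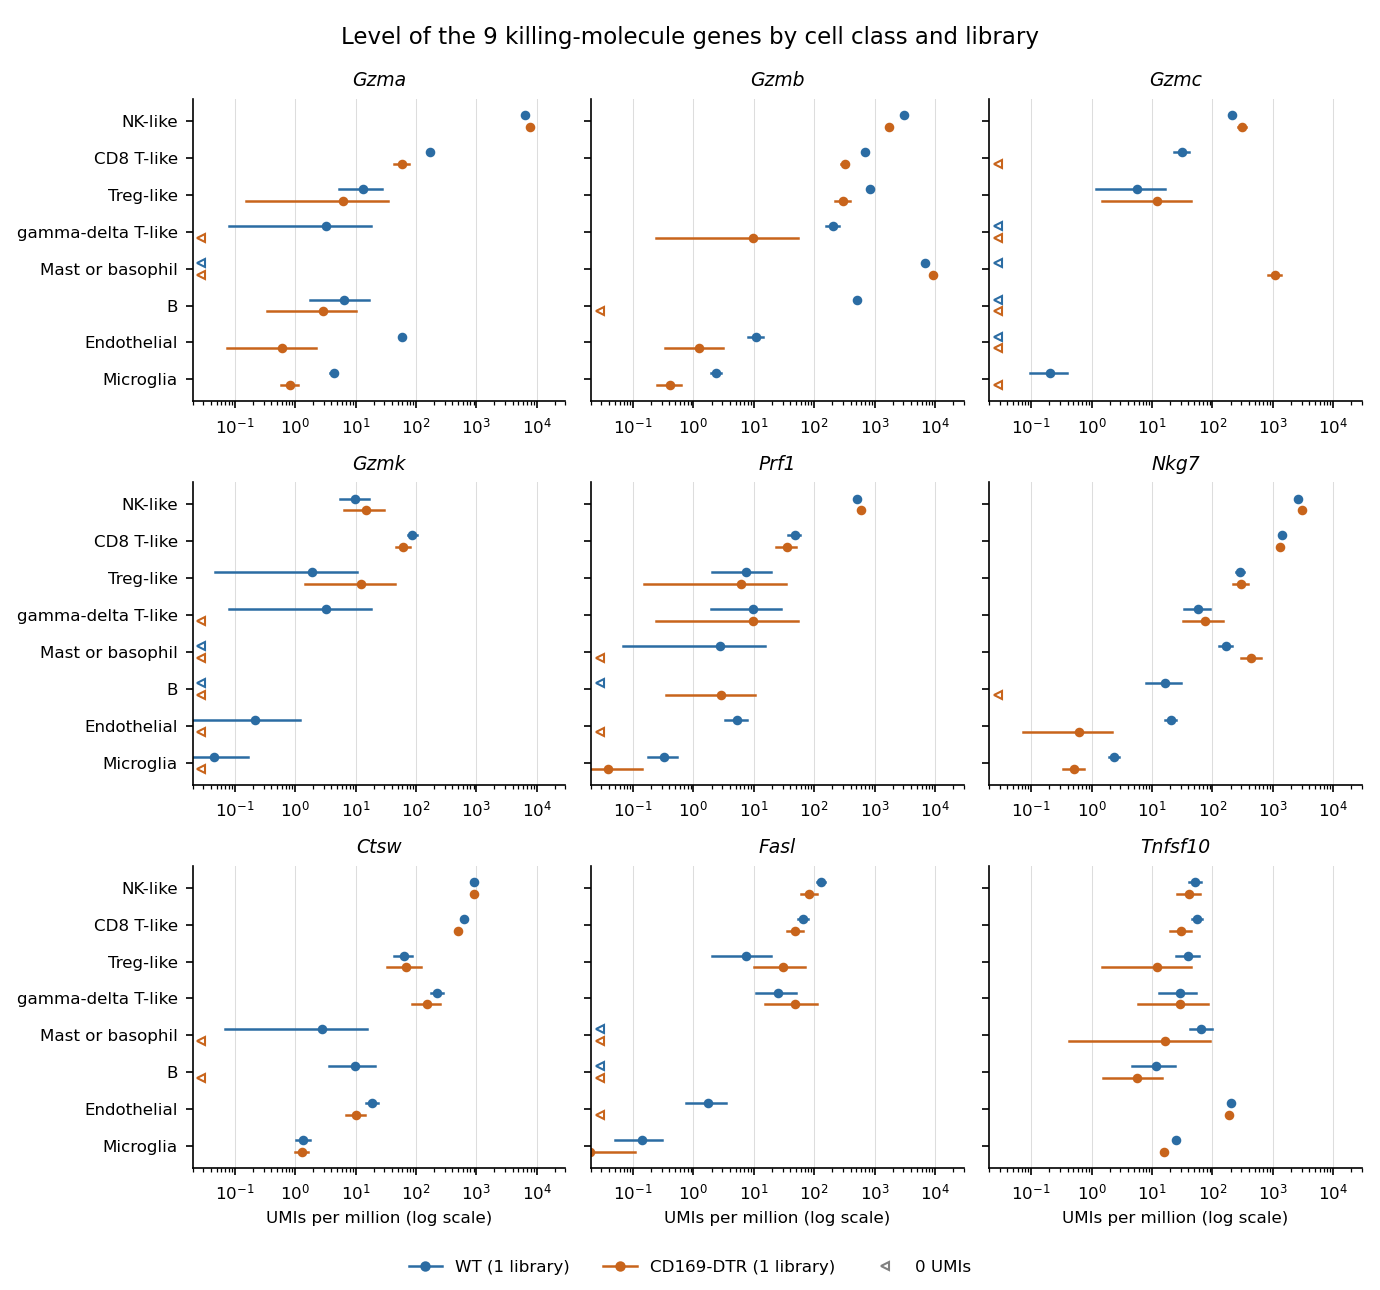
CPM (log axis) of the 9 genes in each class of cells, WT and CD169-DTR libraries in separate colours, with exact 95% Poisson intervals. Open triangles at the left edge mark 0 UMIs. Gzma and Prf1 were highest in NK-like cells, Gzmb in the mast or basophil cluster and Tnfsf10 in endothelial cells.

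Ordered by class over both libraries, Gzma reached 6712 CPM in NK-like cells (95% interval 6600 to 6825), 2039 CPM in the mixed T and NK group and 131 CPM in CD8 T-like cells. Prf1 followed the same order, at 539 CPM in NK-like cells, 170 CPM in the mixed group and 43.1 CPM in CD8 T-like cells. The intervals of these 3 groups did not overlap for either gene. A pair of unnamed clusters with lymphoid and myeloid transcripts, in which 58 of 71 and 44 of 49 cells were among the 5% highest doublet scores, had 883 CPM of Gzma and 92.6 CPM of Prf1. The unnamed proliferating lymphocytes had 720 CPM of Gzma and 50.1 CPM of Prf1, but 358 of the 417 Gzma UMIs and 19 of the 29 Prf1 UMIs came from 1 cell. Without the top cell of each library their Gzma was 86.1 CPM in WT and 48.3 CPM in CD169-DTR mice, against 142 and 47.5 CPM in CD8 T-like cells taken the same way. Nkg7 was at 2714 CPM in NK-like cells, 1542 CPM in the mixed group and 1392 CPM in CD8 T-like cells, and Ctsw at 912 CPM in NK-like and 579 CPM in CD8 T-like cells. Both genes were thus shared more evenly between the classes. The Nkg7 order of the mixed group and CD8 T-like cells differed by library. Without the top cell of each library they were at 1757 and 1409 CPM in WT, and at 998 and 1290 CPM in CD169-DTR mice. Fasl was at 118 CPM in NK-like cells and 103 CPM in the mixed group, where the intervals overlapped (104 to 134, and 78.5 to 132), and at 59.9 CPM in CD8 T-like cells. Gzmk had the reverse order, at 78.3 CPM in CD8 T-like cells (67.8 to 90.0) and 11.3 CPM in NK-like cells, and proliferating lymphocytes, at 67.4 CPM (47.9 to 92.1), did not differ from CD8 T-like cells beyond counting error.

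Gzmb was not highest in a lymphocyte. A cluster of 33 mast or basophil cells, led by Mcpt2, Cma1 and Mcpt1 and carrying Mcpt8, Cpa3, Ms4a2 and Fcer1a, held 22.9% of all Gzmb UMIs at 7098 CPM (95% interval 6847 to 7355), against 2767 CPM in NK-like cells, 725 CPM in Treg-like cells and 564 CPM in CD8 T-like cells. The order of Treg-like over CD8 T-like cells held in WT only. The mast or basophil level was 6743 CPM in WT (2466 UMIs, 19 of 25 cells with Gzmb) and 9227 CPM in CD169-DTR mice (562 UMIs, 4 of 8 cells). A single cell held 358 of the UMIs in WT and another 322 of those in CD169-DTR mice. These cells had no Gzma. Their Gzmc was at 0 UMIs in WT and at 65 UMIs in CD169-DTR mice, all in 2 cells (1067 CPM, against 307 CPM in NK-like cells of that library). In the mast or basophil cluster Ncr1 was at 1 and 0 UMIs and Cd3e at 0 and 1 UMIs, so the lymphocyte markers were at or near 0 where Gzmb was high.

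Tnfsf10 stood apart from the other 8 genes. It was highest in endothelial cells, at 201 CPM in WT and 185 CPM in CD169-DTR mice, followed by the mast or basophil cluster at 58.6 CPM over both libraries, NK-like cells at 49.1 CPM and CD8 T-like cells at 47.0 CPM, whose intervals overlapped (37.9 to 86.5, 39.9 to 59.7, and 39.0 to 56.2). Microglia had 24.7 CPM in WT and 15.8 CPM in CD169-DTR mice. Their share of the Tnfsf10 UMIs thus came with a low level in a class of 4756 and 5329 cells.

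Microglia, which should lack the granule genes, gave the background for shares of cells. With every cell thinned to 2500 UMIs, Gzma was found in 0.91% of WT and 0.21% of CD169-DTR microglia, Gzmb in 0.48% and 0.10%, and Prf1 in 0.065% and 0.038% (median depths before thinning 7657.5 and 7855 UMIs, against 5286 and 6487 in NK-like cells). Free RNA, read from barcodes with few UMIs, was estimated to give 0.109% and 0.0169% of the Gzma UMIs in NK-like cells, and 3.73% and 2.46% of those in CD8 T-like cells. For Gzmb the estimates were 0.155% and 0.0257% in NK-like and 0.638% and 0.157% in CD8 T-like cells. For the few Gzma UMIs of Treg-like cells they were 38.3% and 24.9%, and for the single Gzma UMI of WT gamma-delta T-like cells the estimate was above the count. Background was small beside the Gzma and Gzmb of NK-like and CD8 T-like cells, but it was not equal between libraries: free RNA held Gzma at 251 CPM in WT and 84.4 CPM in CD169-DTR mice, and Gzmb at 175 and 29.2 CPM.

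In both libraries the arms of killing divided unevenly between NK-like and CD8 T-like cells. In WT, 7 of the 9 genes were higher in NK-like cells, 4 of them at least 2-fold, against 7.03% of 8313 genes at least 2-fold higher there, and 1 was at least 2-fold lower, against 5.29%. In CD169-DTR mice, 8 of 9 were higher, 5 of them at least 2-fold against 8.95% of 6347 genes, and 1 was at least 2-fold lower against 5.26%. The median log2 ratio of the 9 genes was 0.99 in WT and 1.19 in CD169-DTR mice, and that of all genes compared was 0.08 and 0.15.

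In the main setting Gzma differed most of the 9 between the classes in WT. Over all settings the highest log2 ratio was 5.51 for Gzma and 5.56 for Gzmc. NK-like cells held 6378 CPM in WT and 7651 CPM in CD169-DTR mice, and CD8 T-like cells 170 and 58.5 CPM, log2 ratios of 5.23 (95% interval 5.06 to 5.41) and 7.03 (6.64 to 7.46). With coarser sub-clusters, which put 326 and 165 cells in the CD8 T-like class, they were 3.6 and 4.46. Ranked among the 3853 genes with at least 100 UMIs in WT, Gzma was the 7th most NK-like gene, after Ly49 and other NK receptor genes (Klra4 9.73, Klra8 7.19, Klri2 7.02, Klrb1b 6.12 and the adaptor Sh2d1b1 5.86 on the log2 scale among the first 5). The other end of that ranking held Cd3e (-9.45), Cd8a (-9.04), Cd3g (-7.25), Fam169b (-6.91) and Pdcd1 (-6.50). Klra4, Klra8, Klri2 and Ncr1 at the NK end, and the CD3 genes and Cd8a at the other, had helped to name the classes, so both ends are partly built in. Prf1 came 21st with log2 ratios of 3.45 in WT and 4.10 in CD169-DTR mice, Gzmc 33rd with 2.77 (4.32 without the top cell of each class, since 38 of the 52 UMIs of CD8 T-like cells were in 1 cell) and at least 6.51, and Gzmb 55th with 2.17 and 2.46. The Gzmc bound is set by 3 UMIs, since CD8 T-like cells of CD169-DTR mice had none.

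The surface ligands and the shared granule proteins were closer. Fasl was higher in NK-like cells by 0.99 and 0.77 on the log2 scale, Nkg7 by 0.86 and 1.19, and Ctsw by 0.55 and 0.89. Tnfsf10 was at -0.11 in WT and 0.44 in CD169-DTR mice, with no common direction. Gzmk, a granzyme of memory-like T cells, was the only one of the 9 that was lower in NK-like cells in both libraries (-3.13 and -2.05) and stood 3835th in the ranking.

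Genes that serve the same granules were compared by lists chosen for their function. Of 12 genes of granule build and release, 9 were higher in NK-like cells in WT and 3 lower, with a median log2 ratio of 0.20 and 1 gene at least 2-fold higher. Among all genes compared, 56.9% were higher in NK-like cells in WT and 60.3% in CD169-DTR mice, and the shares at least 2-fold higher were the 7.03% and 8.95% above. Regulators of granzymes lay further apart. Of 7, 5 were higher and 3 were at least 2-fold higher in WT (median 0.83), and 6 were higher and 4 at least 2-fold higher in CD169-DTR mice (median 1.17). Serpinb9, the inhibitor that protects killer cells from their own granzyme B, was higher in NK-like cells by 2.72 and 2.31, and the related Serpinb6b by 2.31 and 1.89. Serpinb9b had 39 and 20 UMIs in NK-like cells and none in CD8 T-like cells, at least 3.85 and 3.47 higher on the log2 scale with 3 UMIs as the floor, and it is one of the genes that lead an NK-like sub-cluster.

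Of 8 transcription factors of cytotoxic cells, 7 could be compared and all 7 were higher in NK-like cells in both libraries, with medians of 0.97 and 1.25. Eomes, a T-box factor and one of the NK markers used here, was higher by 2.27 and 1.89, Zeb2 by 2.25 and 2.30, Tbx21 (T-bet) by 0.86 and 1.87, and Runx3 by 0.50 and 0.75. Of 8 effector cytokines and chemokines, 6 were higher and 2 lower in WT (median 1.18). Xcl1, which attracts cross-presenting dendritic cells, was higher by 1.70 and 2.61, Ccl5 by 0.66 and 1.16, and Ifng (interferon-gamma) by 0.56 and 2.34.

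Within the NK-like class, Gzma, Prf1 and Nkg7 were higher together in the S1pr5-high than in the Ifi44-high sub-cluster, in each library. Gzma was at 4817 CPM in Ifi44-high and 14223 CPM in S1pr5-high cells in WT, and at 4110 and 13686 CPM in CD169-DTR mice. Prf1 was at 351 and 1358 CPM in WT, and at 250 and 1195 CPM in CD169-DTR mice. S1pr5-high cells were thus higher by 1.56 and 1.74 on the log2 scale for Gzma and by 1.95 and 2.26 for Prf1, and Nkg7 was higher in them by 0.90 and 1.03. These clusters were drawn from other genes of the same cells, with the 9 genes left out, so the contrast is a description and not a finding about independent groups.

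The other killing genes did not follow. Gzmb was not separated between the sub-clusters in WT (-0.05, 95% interval -0.17 to 0.06) and was lower in S1pr5-high cells of CD169-DTR mice (-0.58, -0.79 to -0.37). Gzmc lay almost wholly in Ifi44-high cells, with 318 against 2 UMIs in WT and 164 against 0 in CD169-DTR mice, at least 5.00 lower on the log2 scale in S1pr5-high cells of the second. Tnfsf10 had the same placing, with 77 against 1 UMI and 22 against 0. Fasl differed by 0.57 in WT and -0.18 in CD169-DTR mice, and Ctsw by -0.10 and -0.38.

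**Figure D2:**
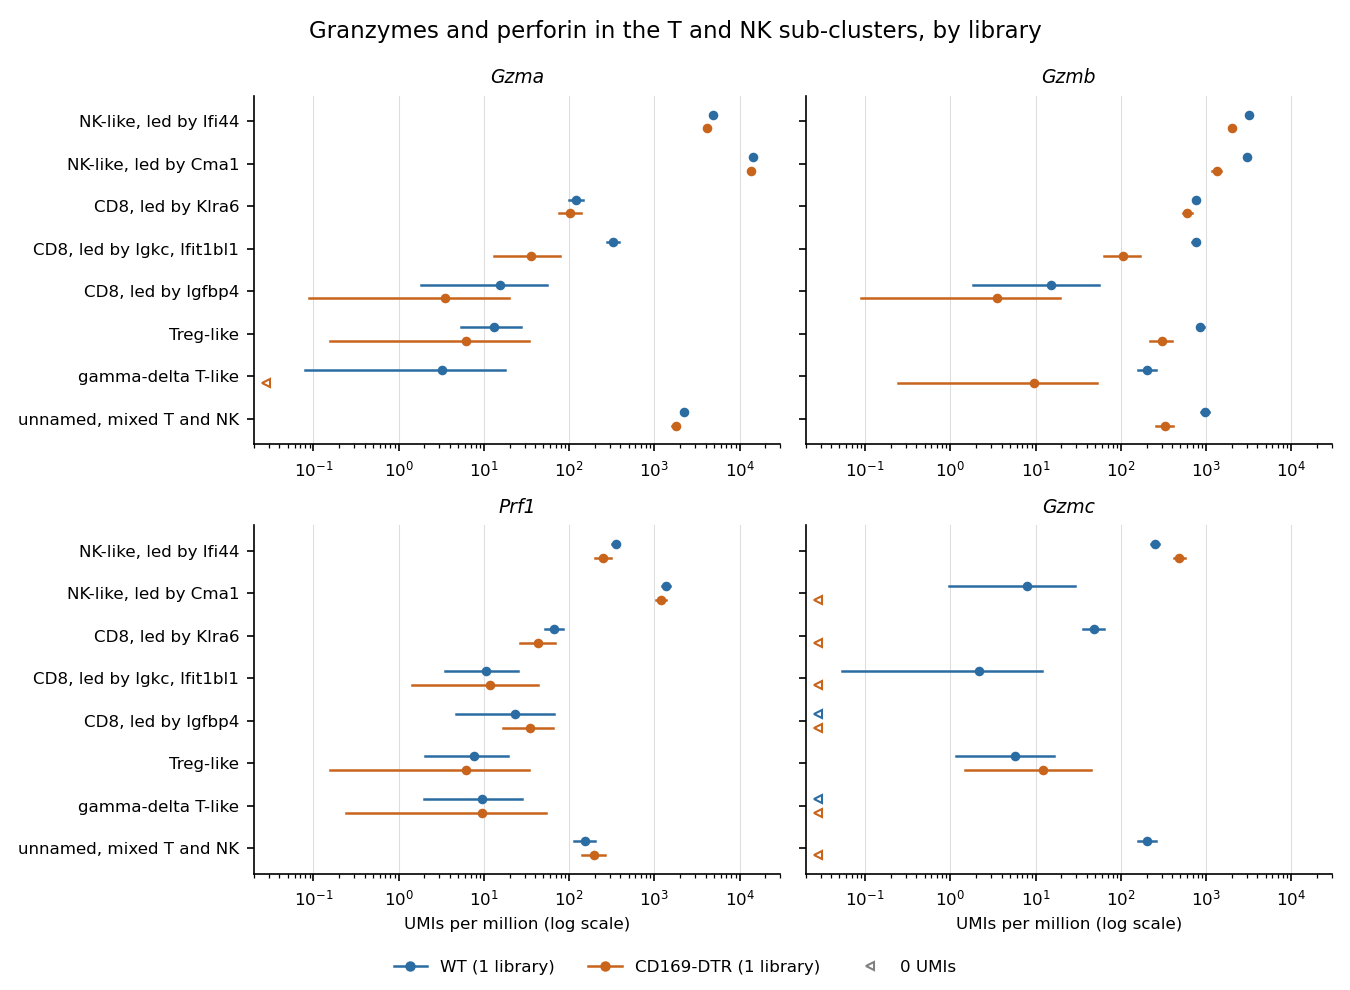
CPM (log axis) of Gzma, Gzmb, Prf1 and Gzmc in sub-clusters of T and NK cells, with exact 95% Poisson intervals, by library. Gzma and Prf1 were higher in the S1pr5-high than in the Ifi44-high NK-like cells of both libraries, and Gzmc was close to 0 in the former.

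Counts per cell showed this for Gzma. After thinning, every S1pr5-high cell held Gzma (49 of 49 in WT and 32 of 32 in CD169-DTR mice), with a median of 35 and 36.5 UMIs per cell and a lowest value of 4 and 3. In Ifi44-high cells the share was 86.3% in WT (164 of 190) and 60% in CD169-DTR mice (24 of 40), and the medians were 11 and 8.5 UMIs. Gzmb had medians of 5 and 3 UMIs per Ifi44-high cell and 3 and 2 per S1pr5-high cell, but in WT it was found in 87.8% of S1pr5-high and 85.8% of Ifi44-high cells, and in CD169-DTR mice in 65.6% and 77.5%. Over single NK-like cells of one library (270 and 75 cells), Pearson correlations of log values were 0.51 and 0.68 for Gzma with Prf1, 0.37 and 0.32 for Gzma with Gzmb, and -0.23 and -0.45 for Gzma with Gzmc. The cells share a library and differ in depth, so these values are given as a description.

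Most NK-like cells carried both main granzymes. Thinned to 2500 UMIs (31 WT cells and 3 from CD169-DTR mice were shallower and were left out, leaving 239 and 72), Gzma was found in 89.1% of WT and 77.8% of CD169-DTR NK-like cells (90.4% and 82.7% without thinning), and Gzmb in 86.2% and 72.2% (89.6% and 85.3%). Both were found in 81.2% and 59.7% of cells, Gzma alone in 7.95% and 18.1%, Gzmb alone in 5.02% and 12.5%, and neither in 5.86% and 9.72%. Prf1 was detected in 54.4% and 55.6% (73.0% and 73.3%), Nkg7 in 99.2% and 95.8% (98.5% and 98.7%), Ctsw in 87.0% and 87.5% (93.0% and 97.3%) and Fasl in 24.3% and 15.3% (44.8% and 38.7%). The median NK-like cell held 5 of the 9 genes in WT and 4 in CD169-DTR mice.

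CD8 T-like cells rarely combined the 3 molecules of the classical granule. Gzma, Gzmb and Prf1 were found together in 1.64% of them in WT and 1.57% in CD169-DTR mice, against 47.7% and 37.5% of NK-like cells. Thinned (29 and 5 cells were left out, leaving 244 and 127), Gzmb was found in 39.8% of WT cells (95% interval 33.6 to 46.2) and 18.1% of CD169-DTR cells (11.8 to 25.9), and without thinning in 49.8% and 25%. Most of these cells had Gzmb and no Gzma (31.6% and 14.2% of all), and 8.20% and 3.94% had both. Nkg7 was the gene most often found, in 77.5% and 66.1% (81.0% and 72.7% without thinning). None of the 9 genes was detected in 11.5% of WT and 26.0% of CD169-DTR cells at this depth.

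**Figure D3:**
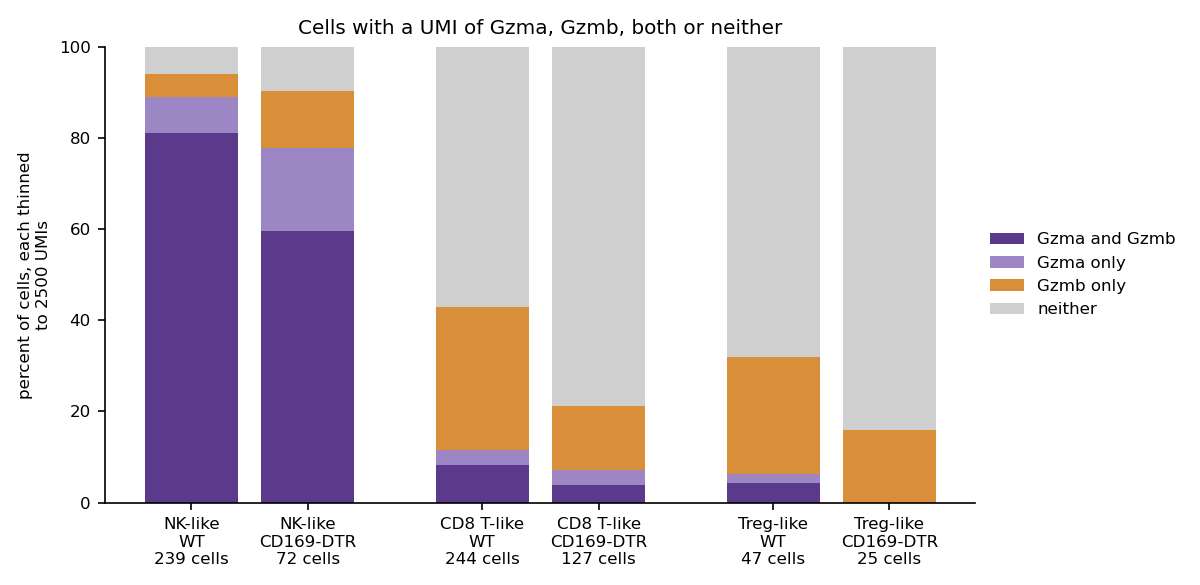
Percent of cells, each thinned to 2500 UMIs, in which both Gzma and Gzmb, Gzma only, Gzmb only or neither was detected, for NK-like, CD8 T-like and Treg-like cells of each library. Both granzymes were found in 81.2% and 59.7% of NK-like cells, and among CD8 T-like and Treg-like cells those with no detected Gzma or Gzmb were the most frequent, followed by those with Gzmb only.

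Detection of perforin went with Gzma more than with Gzmb in NK-like cells. Prf1 was found in 55.8% of Gzmb-positive NK-like cells in WT (115 of 206, 95% interval 48.8 to 62.7) and 57.7% in CD169-DTR mice (30 of 52, 43.2 to 71.3), and in 45.5% and 50.0% of the Gzmb-negative ones. With Gzma the gap was wider, at 59.6% and 64.3% of Gzma-positive against 11.5% and 25% of Gzma-negative cells. Gzmc was placed the other way, in 7.98% and 3.57% of Gzma-positive and 26.9% and 31.2% of Gzma-negative cells.

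Among CD8 T-like cells, those with Gzmb also held Prf1, Gzmk and Nkg7 more often. Prf1 was found in 19.6% of Gzmb-positive and 5.44% of Gzmb-negative cells in WT, and in 21.7% and 6.73% in CD169-DTR mice. Gzmk was found in 23.7% against 8.84% in WT and in 26.1% against 6.73% in CD169-DTR mice, and Nkg7 in 92.8% against 67.3% and in 95.7% against 59.6%. The direction was the same in both libraries for each of these genes.

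Treg-like cells, which restrain other T cells, also held Gzmb. Its level was 856 CPM in WT (453 UMIs) and 300 CPM in CD169-DTR mice (49 UMIs), a log2 ratio to CD8 T-like cells of 0.30 in WT and -0.08 in CD169-DTR mice. Of the WT UMIs 133 came from a single cell, as did 33 of the 49 in CD169-DTR mice. Without these cells Gzmb was at 642 CPM in WT and 101 CPM in CD169-DTR mice. In CD8 T-like cells taken the same way it was at 625 and 220 CPM. The companions were scarce, with Prf1 at 4 and 1 UMIs and Gzma at 7 and 1 UMIs. At 2500 UMIs per cell, Gzmb without Gzma was found in 25.5% of WT and 16% of CD169-DTR Treg-like cells, and neither in 68.1% and 84%. Gamma-delta T-like cells, led by Cd163l1 and Il17a, held Gzmb at 64 UMIs in WT and 1 UMI in CD169-DTR mice, Gzma at 1 and 0, and Ctsw at 71 and 16.

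Between WT and CD169-DTR mice the granzymes of NK-like cells did not move as a group. Gzmb was at 3129 CPM in WT (4705 UMIs) and 1747 CPM in CD169-DTR mice (933 UMIs), a log2 ratio (WT divided by CD169-DTR, as in all that follow) of 0.84 (95% interval 0.74 to 0.94). Gzma was at 6378 CPM in WT (9590 UMIs) and 7651 CPM in CD169-DTR mice (4086 UMIs), a ratio of -0.26 (-0.32 to -0.21). The granzyme B message was thus higher in WT and the granzyme A message lower. Fasl was at 131 and 82.4 CPM, a ratio of 0.67 (0.19 to 1.18), and Tnfsf10 at 51.9 and 41.2 CPM, whose interval held 0 (-0.37 to 1.09).

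The remaining granule genes of NK-like cells were lower in WT or level. Prf1 was at 518 and 599 CPM, a log2 ratio of -0.21 (-0.40 to -0.02, and -0.38 to 0.01 without the top cell of each library), Nkg7 at 2606 and 3020 CPM, a ratio of -0.21 (-0.30 to -0.13), and Ctsw at 905 and 933 CPM, a ratio of -0.04 (-0.19 to 0.11). Gzmc was at 213 and 307 CPM, a ratio of -0.53, but 66 of its 320 UMIs in WT and 60 of its 164 in CD169-DTR mice came from 1 cell each, and without them the interval held 0 (-0.23, -0.56 to 0.12). In Ifi44-high cells, which held nearly all of it, Gzmc was lower in WT also without those cells (-0.94 with them, and -0.66, -1.00 to -0.32, without). Gzmk had 15 and 8 UMIs. In all, 3 genes were higher and 6 lower in WT with a median of -0.21 against -0.01 over 7281 genes, and none reached 2-fold, against 4.49% of those genes higher and 2.4% lower. The share of all genes higher by any amount is given further below. With other weights of the sub-clusters the median turned to above 0, at most 0.063.

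The lower Gzma and Prf1 of WT were not found inside the sub-clusters, whereas the higher Gzmb was. Nkg7 was nearly level in them, and without the top cells its intervals held 0 (-0.16 to 0.11 in S1pr5-high and -0.04 to 0.20 in Ifi44-high cells). In S1pr5-high cells the log2 ratio was 0.06 for Gzma (-0.02 to 0.13), 0.18 for Prf1 (-0.06 to 0.43) and -0.07 for Nkg7. In Ifi44-high cells it was 0.23 for Gzma (0.14 to 0.31), 0.49 for Prf1 (0.15 to 0.85) and 0.06 for Nkg7. Gzmb was at 3037 and 1332 CPM in S1pr5-high cells, a ratio of 1.19 (0.98 to 1.4), and at 3148 and 1991 CPM in Ifi44-high cells, a ratio of 0.66 (0.54 to 0.78). Fasl kept its direction in both, with 1.25 (0.38 to 2.20) and 0.49, where the interval held 0 (-0.09 to 1.12). With each sub-cluster given the same weight, the NK-like ratios of Gzma, Prf1 and Nkg7 turned to 0.14, 0.31 and 0.011. With NK-like cells taken by their marker UMIs in place of clusters, cells with CD3 UMIs left out, the ratio of Gzmb was 0.74.

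**Figure D4:**
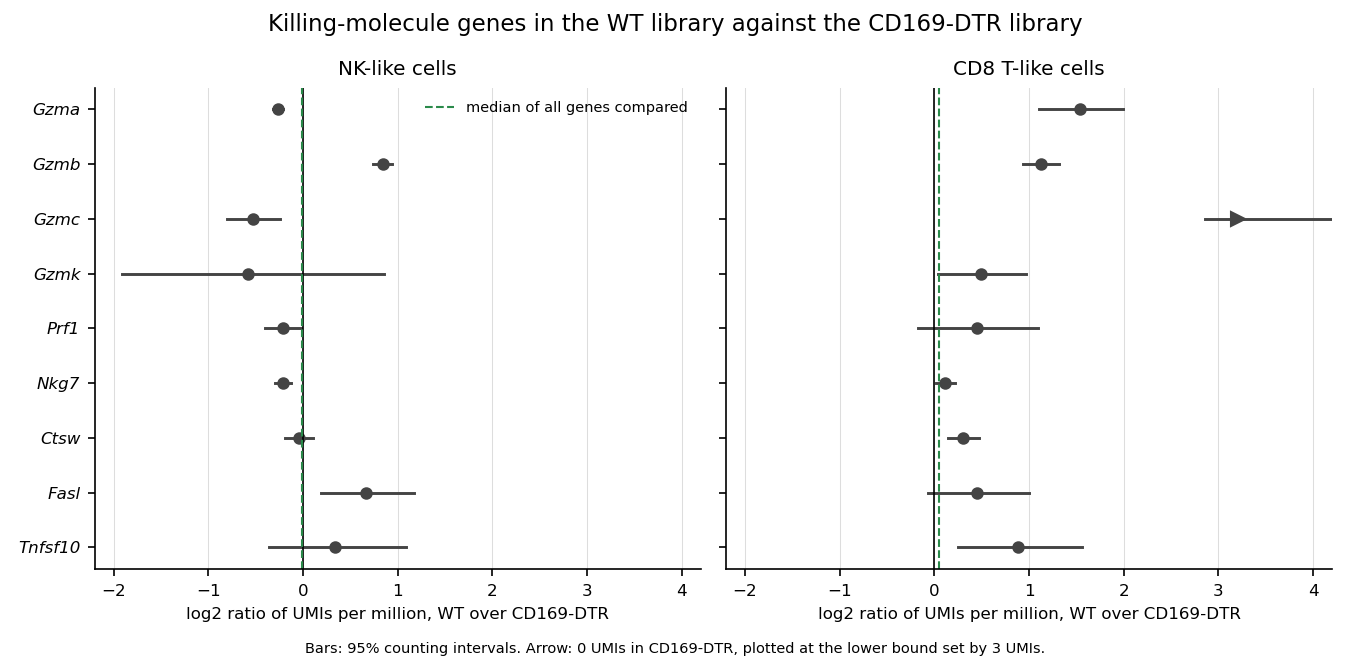
Log2 ratios between libraries, WT divided by CD169-DTR, for the 9 genes in NK-like and CD8 T-like cells, with exact 95% conditional intervals, and the median of all genes as a dashed line. Gzmb was above 0 in both classes, Gzma was below 0 in NK-like and above 0 in CD8 T-like cells, and the arrow marks Gzmc in CD8 T-like cells, at a lower bound of 3.21 set by 3 UMIs.

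In CD8 T-like cells all 9 genes were higher in WT. The larger part of all genes compared was also higher in WT, by the share given further below. The median log2 ratio was 0.49, against 0.05 over 7752 genes, and 3 of the 9 were at least 2-fold higher, against 4.58% of those genes (1.69% were at least 2-fold lower). Gzma was at 170 CPM in WT (283 UMIs) and 58.5 CPM in CD169-DTR mice (52 UMIs), a ratio of 1.54 (1.11 to 2.00). Gzmb was at 696 CPM (1158 UMIs) and 318 CPM (283 UMIs), a ratio of 1.13 (0.94 to 1.32). Single cells with 127 of the Gzmb UMIs in WT and 89 in CD169-DTR mice weighed on this, and without them the ratio was 1.50 (1.28 to 1.73). Gzmc had 52 UMIs in WT, 38 of them in 1 cell, and none in CD169-DTR mice, at least 3.21 higher on the log2 scale with 3 UMIs as the floor and at least 1.32 without that cell. None of the 3 stayed at least 2-fold under every setting: with coarser sub-clusters Gzma was at 0.59, with both libraries scaled together the bound of Gzmc was 0.39, and without the sub-cluster led by Igfbp4 Gzmb was at 0.69.

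The other 6 differed by less than 2-fold. Tnfsf10 had a log2 ratio of 0.88 (0.25 to 1.56), Gzmk 0.49 (0.04 to 0.97), Ctsw 0.30 (0.14 to 0.47) and Nkg7 0.12 (0.02 to 0.22). The ratios of Prf1 (0.45, -0.17 to 1.09) and Fasl (0.45, -0.07 to 1.00) had intervals that held 0. Perforin was thus not resolved between libraries in either direction in CD8 T-like cells, at 79 and 31 UMIs.

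Inside the CD8 T-like class, Gzmb, Gzma and Gzmk had larger ratios in the sub-cluster led by Igkc than in that led by Klra6. In the former Gzmb was at 751 CPM in WT (351 UMIs) and 107 CPM in CD169-DTR mice (18 UMIs), a log2 ratio of 2.81 (2.13 to 3.58), Gzma at 152 and 6 UMIs, a ratio of 3.19 (2.03 to 4.66), and Gzmk at 90 and 16 UMIs, a ratio of 1.02 (0.24 to 1.88). Without the top cell of each library these ratios were 2.99, 5.21 (2.70 to 10.5, at 104 and 1 UMIs) and 1.63. Nkg7 and Ctsw in the same cells differed by 0.11 and 0.20. In the sub-cluster led by Klra6, Gzmb was at 755 and 604 CPM, a ratio of 0.32 (0.12 to 0.53, and 0.66 without the top cells), and Gzma at 121 and 103 CPM. Gzmk was lower in WT there, at 51.6 and 80.1 CPM, but without the top cells its interval held 0 (-0.45, -1.16 to 0.30). Nkg7 without the top cells was also lower in WT (-0.24, -0.36 to -0.13). The sub-cluster led by Igfbp4, 26 of 273 cells in WT and 47 of 132 in CD169-DTR mice, had almost no granzyme, with 2 and 1 UMIs of Gzmb and 25 and 101 UMIs of Nkg7. Without that sub-cluster the ratio of Gzmb in the class was 0.69, and those of Nkg7, Fasl and Ctsw turned to -0.21, -0.013 and -0.0086. With CD8 T cells taken by their marker UMIs, cells with Cd4 UMIs left out, Gzmb was at 1.12 and Gzma at 2.05.

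Treg-like and mixed cells also held more Gzmb in WT. The log2 ratio was 1.51 in Treg-like cells (1.08 to 1.97), 2.67 (1.95 to 3.49) without the top cell of each library, and 1.55 in the mixed T and NK group (1.19 to 1.93). Together with NK-like and CD8 T-like cells, Gzmb was higher in WT in every one of the 4 groups with intervals above 0, while the direction in the mast or basophil cluster rested on single cells: 6743 against 9227 CPM with all cells, and 5943 against 4834 CPM (0.30, 0.10 to 0.50) without the top cell of each library. Whether this would recur in other mice cannot be judged from 1 library a group.

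Genes around the killing molecules were divided between the libraries, where 48.6% of all genes compared were higher in WT in NK-like cells and 55.4% in CD8 T-like cells. In NK-like cells Srgn (serglycin, the proteoglycan that packs granzymes) was higher in WT by 0.48 (0.34 to 0.63) and Serpinb9 by 0.32, while Ctsc (cathepsin C, which activates granzymes) was at -0.54 and Ccl5 at -0.61. Of the 11 granule genes compared, 4 were higher and 7 lower (median -0.11), and of 7 transcription factors 6 were higher and 1 lower (median 0.16), with Eomes at 0.51 and Zeb2 at -0.53. Of 7 activating receptor genes 1 was higher and 6 were lower (median -0.36), with Ncr1 at -0.49. These genes were summed over the whole class, and the part of the sub-cluster sizes in their ratios was not tested.

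In CD8 T-like cells Ifng was at 475 UMIs in WT and 94 in CD169-DTR mice, a log2 ratio of 1.43 (1.11 to 1.77), and Xcl1 at 987 and 186 UMIs, a ratio of 1.50 (1.28 to 1.74). Tbx21, the T-box factor of cytotoxic T cells, had 88 and 20 UMIs and a ratio of 1.23, Runx3 a ratio of 0.37, and Ccl5 one of -0.11. Of the 12 granule genes, 8 were higher and 4 lower (median 0.14). Of 7 death receptor genes 6 were higher and 1 lower (median 0.42), of 5 exhaustion receptors 4 were higher and 1 lower (median 0.25), and of 6 granzyme regulators 3 were higher and 3 lower. All 5 proliferation genes compared were higher in WT (median 0.93), led by Pclaf with 38 and 3 UMIs. As in NK-like cells, these genes were summed over the whole class, and the part of the sub-cluster sizes in their ratios was not tested. Markers of myeloid cells stood at 1187 and 1061 CPM in CD8 T-like and 1249 and 1000 CPM in NK-like cells in sum, with 10 of 10 markers found, Ctss the most abundant (308 and 234 CPM, and 277 and 195 CPM) and P2ry12 at 22 and 14, and 22 and 8 UMIs. Their part in the differences was not tested.

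Over the 15 named classes in each library (30 points that share libraries and depth), log CPM of Gzma was most like that of the NK receptor genes Klrb1c (r = 0.93), Klra9 (0.93), Ncr1 (0.91), Klrb1a (0.90) and Klra8 (0.90), and like Prf1 (0.88). Prf1 was most like Klra9 (0.90), Klrb1c (0.89), Il2rb (0.89), Klrc2 (0.89) and Baiap3 (0.88). Gzmb was most like Rab37 (0.87), Itga2 (0.85), Skap1 (0.82) and Eya2 (0.81) among the other genes reported here, and like Nkg7 (0.91), but less like Gzma (0.49). The genes beside Gzma and Prf1 were thus largely NK receptors, and those beside Gzmb were not. Klrb1c, Ncr1 and Klra8 were among the markers that named the NK-like class, so their likeness to a gene high in that class is partly built in.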

How the data were processed

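The authors prepared 3' single-cell libraries with the 10x Genomics chemistry from sorted CD45.2+ cells, 1 library for each group of 3 pooled mice, and deposited raw UMI counts of all barcodes (Cell Ranger, version 3.1.0 in the matrix header, mm10). The libraries held 101808996 (WT) and 84065489 (CD169-DTR) UMIs. Of 10356 and 7822 barcodes that reached 1000 UMIs, 249 and 218 were removed because mitochondrial genes gave more than 17% of their UMIs.

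Counts were scaled to 10000 per cell and clustered in Python 3.11.15 with scanpy 1.11.5 (2000 variable genes, 30 principal components, 20 neighbours, Leiden at resolution 1 with leidenalg 0.10.2), and lymphoid clusters were clustered again with 20 components. The 9 genes and the other granzymes took no part in the clustering. Classes were named from marker genes. The limits of the naming were set after the clusters had been seen: at most 20% of cells with CD3 UMIs for NK-like, at least 70% and at least 3 CD8 UMIs for each CD4 UMI for CD8 T-like, Foxp3 at 0.5 UMIs per cell for Treg-like and Trdc at 2 for gamma-delta T-like cells. The unnamed mixed group lay just under the limit of 70%. Doublets were not removed, and leaving out the 5% highest Scrublet scores was an alternative. A pair of lymphoid clusters with myeloid transcripts (102 WT and 18 CD169-DTR cells, most of them with such scores) stayed unnamed.

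UMIs were summed by class and library. Ratios are log2 of CPM with exact conditional 95% intervals, for genes with at least 20 UMIs over both sides, and shares have exact Clopper-Pearson intervals (scipy 1.17.1). UMIs are molecules, but intervals and floors cover counting error only. Free RNA was read from barcodes with 10 to 100 UMIs. Shares and co-detection used cells thinned to 2500 UMIs. With 1 library a group no p-value was computed, and groups cannot be told apart from libraries.

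Genes named were the 9 members, genes of the functional lists with at least 20 UMIs in a class, for Gzma, Gzmb and Prf1 the 5 other genes with the highest Pearson correlation of log CPM over classes (at least 50 UMIs; 1 of those for Gzmb is not reported here), and the 5 highest and 5 lowest NK-like to CD8 T-like ratios in WT (at least 100 UMIs). Siglec1, Gzmf, Gzmm and the genes that lead clusters were named after their values were seen. The members and lists were chosen with earlier results of these data known. One list gene, Cd244a, was not among the gene symbols. Alternatives were another UMI minimum, scaling, clustering, gating, depth and mitochondrial maximum, free RNA subtraction, the top cell left out and, chosen after seeing the data, other weights of sub-clusters and the shared barcodes left out.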

Additional observations from a re-analysis of the deposited data

How the results depend on the processing

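No paired analysis was possible because each group is 1 library, and for the same reason no replicate could be left out. The values below are log2 ratios unless named as percent. In NK-like cells the median of the 9 genes for WT over CD169-DTR (-0.21) turned to 0.011 with each sub-cluster given the same weight in both libraries and to 0.063 without the sub-cluster led by Cma1 and S1pr5. In the same pair of settings Gzma turned from -0.26 to 0.14 and 0.23, Prf1 to 0.31 and 0.49, and Nkg7 to 0.011 and 0.063. In CD8 T-like cells Nkg7 turned to -0.19 with equal weights and to -0.21 without the sub-cluster led by Igfbp4, and Fasl (0.45) and Ctsw to -0.013 and -0.0086 without it. These settings differ from the main one only in the weight of sub-clusters.

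Gzmb in NK-like cells (0.84) stayed between 0.66 and 0.87 and moved to 0.72 with a minimum of 2000 UMIs and to 0.66 without the sub-cluster led by Cma1 and S1pr5. Gzmb in CD8 T-like cells (1.13) moved to 1.50 without the top cell, 1.4 with 2000 UMIs, 1.47 with finer sub-clusters, 0.84 with equal weights and 0.69 without the sub-cluster led by Igfbp4. The median for NK-like over CD8 T-like cells in CD169-DTR mice (1.19) moved to 1.45 with cells weighted equally, 1.04 with median-ratio scaling, 1.52 with 2000 UMIs, 1.41 with finer sub-clusters, 1.45 with both libraries scaled together and 0.77 without the sub-cluster led by Igfbp4. Gzma for the same comparison went from 5.23 to 3.6 in WT and from 7.03 to 4.46 in CD169-DTR mice with coarser sub-clusters. Other causes than the settings themselves were not tested. The corresponding medians in WT (0.99, range 0.82 to 1.24) and in CD8 T-like cells for WT over CD169-DTR (0.49, range 0.37 to 0.72) kept their direction under every alternative run.

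The percent of Gzmb-positive NK-like cells with Prf1 depended on depth, as its construction implies. In WT (55.8%) it was 36.9% thinned to 1000 UMIs, 78.3% thinned to 4500 UMIs and 75.6% without thinning, and in CD169-DTR mice (57.7%) 40.5% at 1000 UMIs and 76.6% without thinning. Leaving out the 21 shared barcodes changed no result, and subtracting free RNA or leaving out the highest doublet scores reversed none.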

Other observations

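Among granzymes outside the 9 genes, Gzmd, Gzme, Gzmg and Gzmn had 0 UMIs in the cells of both libraries, but at their 3' ends 177, 207, 150 and 104 of 470 windows of 31 bases are shared with other granzymes, and reads from a shared window cannot be given to 1 gene. Gzmf, of the same chromosome 14 cluster as Gzmb and Gzmc, had 42 UMIs, of which 24 came from 1 cell of the unnamed lymphoid group with myeloid transcripts, from CD169-DTR mice, that also held Gzmc. Gzmm, a granzyme known from NK cells, had 347 UMIs, and most were not in lymphocytes: choroid plexus cells held 138 UMIs in WT (69 cells, 45.0 CPM) and 92 in CD169-DTR mice (54 cells, 30.3 CPM), against 2 and 6 UMIs in NK-like and 10 and 6 in CD8 T-like cells.

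The 33 mast or basophil cells differed among themselves in what went with Gzmb. Of the 23 cells with Gzmb, 15 held Mcpt1 and 17 held Mcpt2, proteases of mucosal mast cells, against 0 and 3 of the 10 cells without Gzmb. Mcpt4, of connective tissue mast cells, was at 3580 CPM in cells with Gzmb and 31330 CPM in cells without, but was found in 13 of 23 and 4 of 10. Other mast cell genes were divided. Tpsb2 was at 7386 and 18606 CPM (14 of 23 and 4 of 10 cells), and Cma1 at 23485 and 20920 CPM (20 of 23 and 4 of 10 cells). Mcpt8, of basophils, was found in 18 of 23 and 5 of 10 cells. The cells with Gzmb were deeper, with a median of 14618 against 3651.5 UMIs, which raises detection in them.

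Some granzyme sums were concentrated in 1 barcode. In B cells 313 of the 315 Gzmb UMIs in WT came from 1 cell, in granulocytes 127 of 172 Gzma UMIs in WT, and among the unnamed proliferating lymphocytes of CD169-DTR mice 358 of 361 Gzma UMIs.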
